A study of Mus musculus with 6 samples.

Results

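The 6 genes described here serve the exchange between the mouse oocyte and the granulosa cells around it, namely the secreted growth factor genes *Gdf9*, *Bmp15*, *Bmp6* and *Fgf8*, the receptor gene *Kit* and the gap junction gene *Gja4*. They were chosen by name, though with earlier results of these data known. All 6 of 6 were found, each on 1 row, among 25899 gene symbols of the FPKM table. FPKM are fragments scaled to the exon length of a gene and to the mapped reads of a library. The libraries came from oocytes of aged females (AF) that had just passed nuclear envelope breakdown (NEBD), the step at which meiosis resumes. Of the 6 libraries, 3 held the non-polysomal RNA (NP, free RNA or RNA bound by single ribosomes), and 3 held the polysomal RNA (P, RNA bound by several ribosomes). The labels give the females as CD1 mice of 58 weeks, while the methods of the study give ICR mice and an age that does not match exactly. All 6 libraries share the same treatment. The females received 5 IU of pregnant mare serum gonadotropin, and 46 h later fully grown oocytes were isolated in 100 µM IBMX, which blocks the resumption of meiosis. The oocytes were stripped of cumulus cells, cultured without IBMX for 180 min, and held in 0.1 mg/ml cycloheximide for 10 min, which keeps ribosomes on the mRNA. Each sample was 200 pooled oocytes, and the 10 fractions of its sucrose gradient were joined into NP and P. The question put to these data is how the mRNAs of the 6 genes were distributed between NP and P, and how they stood to one another within each fraction. No source used here says that the 3 replicates came from separate animals or cultures, so p-values measure only the spread between these samples.

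GDF9 and BMP15 are secreted by the oocyte as members of the TGF-beta family and act on granulosa and cumulus cells, where they support growth and cumulus expansion. BMP6 is another oocyte ligand of that family, and FGF8 acts together with BMP15 on the glycolysis of cumulus cells. In the other direction, KIT on the oocyte surface receives Kit ligand from granulosa cells and supports oocyte growth, and connexin 37, the product of *Gja4*, forms the gap junctions through which granulosa cells pass small molecules to the oocyte. In the maturing oocyte transcription is silent, and stored mRNAs are recruited to or released from ribosomes largely through the length of their poly(A) tail, for which the 3′ end carries a poly(A) signal (AATAAA) and, in some mRNAs, a cytoplasmic polyadenylation element such as TTTTAT.

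The 3′ ends are shown as a description of these elements in the genes. Whether the elements bear on the distribution between fractions was not tested. The 30 bases below start 39 bases before the annotated end of each transcript in GENCODE M21 (GRCm38), are read 5′ to 3′ on the strand of the gene, and carry TTTTAT and AATAAA in capitals.
Gdf9, chr11:53437866-53437895, plus strand: TTTTATgtgacggaagAATAAActgttgat
Bmp15, chrX:6314116-6314145, minus strand: taatcttaaagAATAAAttttcatttatgt
Kit, chr5:75656684-75656713, plus strand: ctgaagaattctAATAAAaatgtaaatata
Gja4, chr4:127311430-127311459, minus strand: actgtttatgatcctcaAATAAAcaggact

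*Gdf9* alone among these 4 held TTTTAT in the printed window. The window starts on the first base of that element, so the choice of window set this outcome for *Gdf9*. In the last 100 bases *Gdf9* and *Bmp6* each held 1 copy of TTTTAT, and *Bmp15*, *Fgf8*, *Kit* and *Gja4* held 0. *Bmp15* and *Kit* each held 3 copies of TTTTAT in the whole 3′ UTR, the nearest starting 530 and 145 bases from the end. The 3′ UTR of *Bmp6* held 2, the nearest at 79 bases, and those of *Gja4* and *Fgf8* held 0. The *Bmp6* and *Fgf8* models held no AATAAA in their last 100 bases, and no window is printed for them. The 3′ UTRs ran from 192 bases in *Fgf8* through 360 in *Gdf9*, 546 in *Gja4*, 1234 in *Bmp6* and 1523 in *Bmp15* to 2177 in *Kit*, beside a median of 1035 bases over 8423 tested genes. Among those 8423 genes the last 100 bases, read on the transcript strand, held TTTTAT in 15.0%, AATAAA in 65.9% and both in 9.90%. Genes with TTTTAT in that window had a median log2 ratio (P over NP) of -0.88, and genes without it one of -1.03. These letters are a description of the annotated ends, and which ends the oocyte uses was not measured.

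The depth recovered from the steps of the low FPKM values was 1237799 to 18096676 reads in NP and 163822 to 1549317 in P, and AF P replicate 1 was the shallowest library. Genes above 0 numbered 9992 to 13514 in NP and 6247 to 9557 in P. The listed FPKM summed to 597277 to 633211 in NP and to 246215 to 393926 in P, and the 10578 tested genes had a median log2 ratio (P over NP) of -1.03. Ratios of single genes are therefore also given relative to that median. The 14 oocyte markers summed to 12070 to 15810 FPKM in NP and 4293 to 11790 in P, with *Sohlh1* at 0. Of 18 granulosa and cumulus markers, 9 were at 0 in all 6 libraries, among them *Fshr*, *Foxl2*, *Amh* and *Gja1*, and their sum was 7.85 to 104.2 FPKM in NP and 0.363 to 16.5 in P, with *Cyp19a1* the highest of them. The 4 blood markers in the table were at 0 in every library.

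The mRNAs of *Fgf8* and *Gja4* were lower in P as deposited, and the other 4 genes did not pass the test, which does not show that their fractions did not differ. Both calls depended on the setting: they held in 7 and 6 of 15 alternatives and were lost under each of 3 rescalings, with no filter on low values, with no trend and without any 1 NP library. In limma on log2(FPKM + 1) with Benjamini-Hochberg adjustment over 10578 genes and a threshold of 0.1, 2 of the 6 genes were called lower in P, where 1.8% of all tested genes were, and 0 of 6 were called higher, where 0.0189% of all tested genes were. The 2 genes called higher in the whole table were *Lars2* and *Gm15564*, named here after their values were seen. Over all genes the test called 190 lower and 2 higher as deposited, against 1 lower and 2 higher after median-of-ratios scaling, 2 and 2 after quantile normalization, and 5 and 2 after scaling to a common FPKM sum. In FPKM as deposited, every P library lay below every NP library for the same 2 of 6 genes, as for 23.2% of all tested genes. On that scale every P library lay above every NP library for 0 of 6, against 0.633%. With the replicate number as a block in the fit, 663 genes were lower (6.27%) and 5 higher (0.0473%), and of the 6 genes the same 2 were called lower (*Fgf8*, adjusted p = 0.0128, and *Gja4*, 0.0291) and 0 higher. Between libraries of the same number, P was the lower in 3 of 3 pairs for *Bmp6*, *Fgf8* and *Gja4*, as for 38.6% of all tested genes, in 2 for *Kit* and in 1 for *Gdf9* and *Bmp15*. P was the higher in 3 of 3 pairs for 0 of 6 genes, against 2.09% of all tested genes. FPKM are relative to the reads of each library, so they do not show a change in the total RNA of a fraction. In pooled oocytes, fewer cells that hold an mRNA and less of it per cell cannot be told apart.

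**Figure D1:**
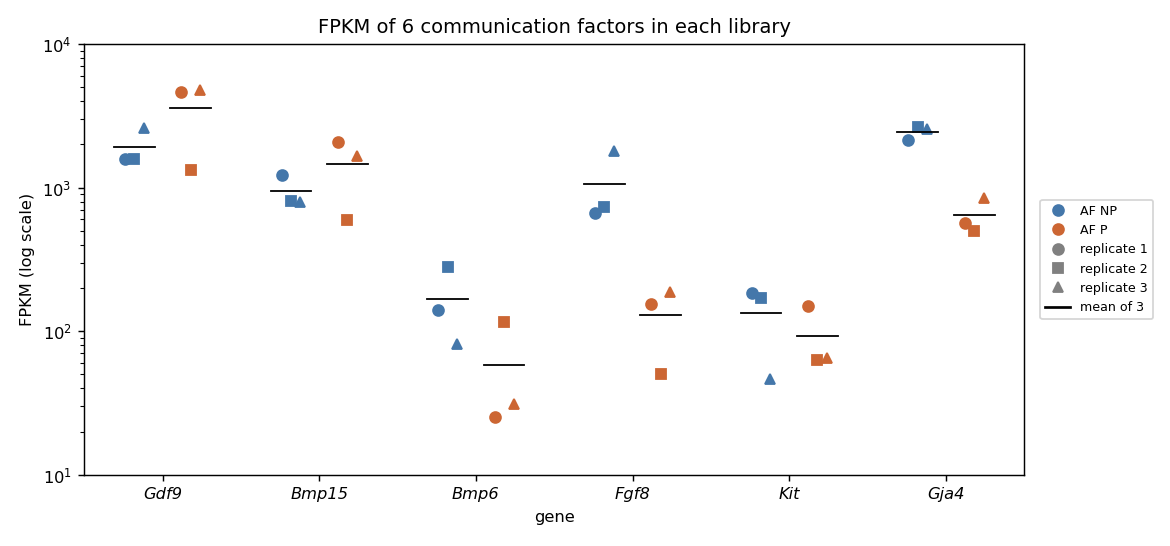
FPKM of each gene on a log axis in the 3 AF NP libraries (blue) and the 3 AF P libraries (orange), with the replicate number as the symbol and the mean of 3 as a line. The NP and P points do not overlap for *Fgf8* (670 to 1797 against 50.0 to 186) and *Gja4* (2161 to 2642 against 500 to 852), and overlap for the other 4 genes on this FPKM scale.

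*Gdf9* (ENSMUSG00000018238, chr11:53431023-53437904, plus strand) was the most abundant of the 6 mRNAs in every P library. AF NP replicates 1 to 3 held 1591, 1580 and 2602 FPKM, which average 1925 ± 587 (SD, n = 3). AF P replicates 1 to 3 held 4628, 1329 and 4776 FPKM, which average 3578 ± 1949 (SD, n = 3). In FPKM, AF P replicates 1 and 3 were above every NP library, and AF P replicate 2 was below them all. AF P replicate 2 also had the lowest summed FPKM, 246215. As shares of the summed FPKM, *Gdf9* made up 1.35%, 0.540% and 1.21% in P and 0.260%, 0.250% and 0.436% in NP. These shares did not overlap, but how many of all genes did the same was not counted. After scaling to a common FPKM sum the limma adjusted p was 0.190. By abundance among all genes it ranked 3, 7 and 5 in the P libraries and 26, 34 and 21 in the NP libraries. The log2 ratio of P over NP was 0.72 (SE 0.50, 95% interval -0.31 to 1.75), with an adjusted p of 0.461 in limma. Relative to the median of all genes it was 1.75, higher than in 92.4% of the tested genes.

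*Bmp15* (ENSMUSG00000023279, chrX:6314107-6320721, minus strand) encodes the ligand that forms heterodimers with GDF9. Its levels in AF NP were 1226, 804 and 797 FPKM, on average 942 ± 245 (SD, n = 3). In AF P the levels were 2085, 598 and 1665 FPKM, on average 1449 ± 766 (SD, n = 3). As with *Gdf9*, AF P replicates 1 and 3 exceeded every NP library in FPKM and AF P replicate 2 lay below them. Its shares of the summed FPKM were 0.610%, 0.243% and 0.423% in P and 0.200%, 0.127% and 0.133% in NP, without overlap. With a common FPKM sum the limma adjusted p was 0.483. The log2 ratio was 0.47 (SE 0.55, 95% interval -0.67 to 1.60, limma adjusted p = 0.645), which is 1.50 relative to the median and above 88.6% of the tested genes. *Bmp15* ranked 13, 28 and 21 in P, and 49, 101 and 129 in NP. For both ligands the ratio stayed above 0 in all 15 alternative settings, between 0.41 and 1.72 for *Gdf9* and between 0.11 and 1.47 for *Bmp15*, and passed the test in none of them.

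*Bmp6* (ENSMUSG00000039004, chr13:38345716-38499728, plus strand) was less abundant and more variable. AF NP held 139, 278 and 82.0 FPKM, on average 166 ± 101 (SD, n = 3), and AF P held 25.3, 117 and 31.1 FPKM, on average 57.7 ± 51.2 (SD, n = 3). The value in AF P replicate 1 rests on only about 16 reads (95% Poisson interval 14.3 to 40.7 FPKM, counting error only). Replicate 2 was the highest library of both fractions, and its P value lay above the lowest NP value, so the fractions overlapped, although P was the lower of each pair of the same number. The log2 ratio of P over NP was -1.68 (SE 0.88, 95% interval -3.51 to 0.15), with an adjusted p of 0.354 in limma, and -0.65 relative to the median. Without AF P replicate 2 it was -2.35 (adjusted p = 0.265), and over the 15 alternatives it lay between -2.35 and -0.59. An uncharacterized gene on the opposite strand, *4930579J19Rik*, lies inside *Bmp6* and shares 0 exon bases with it.

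*Fgf8* (ENSMUSG00000025219, chr19:45736798-45742915, minus strand) encodes a fibroblast growth factor that cumulus cells receive from the oocyte, and had the lowest ratio of the 6. The AF NP libraries gave 670, 732 and 1797 FPKM, on average 1067 ± 633 (SD, n = 3). The AF P libraries gave 154, 50.0 and 186 FPKM, on average 130 ± 71.1 (SD, n = 3). The highest P library lay below the lowest NP library, and the mean of P was 0.122 times that of NP. These P values rest on 34, 77 and 389 recovered reads, whose exact 95% Poisson intervals are 106 to 215, 39.4 to 62.4 and 168 to 205 FPKM and cover counting error only. All of these intervals end below the lowest NP value. The log2 ratio was -3.08 (SE 0.70, 95% interval -4.52 to -1.63), with an adjusted p of 0.0416 in limma, and it was -2.05 relative to the median. The call was lost after the 3 rescalings, where the ratio was between -2.17 and -2.08 and the adjusted p between 0.358 and 0.614, and without AF NP replicate 1 (-3.33, adjusted p = 0.295), replicate 2 (-3.27, 0.211) or replicate 3 (-2.62, 0.165). Over the 15 alternatives it stayed below 0 and was called in 7.

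*Kit* (ENSMUSG00000005672, chr5:75574916-75656722, plus strand), the receptor tyrosine kinase, showed 186, 171 and 46.8 FPKM in AF NP, on average 135 ± 76.4 (SD, n = 3). In AF P it showed 151, 63.2 and 64.8 FPKM, on average 92.9 ± 50.1 (SD, n = 3). AF NP replicate 3 was the lowest of all 6 libraries, and the fractions overlapped. The log2 ratio was -0.42 (SE 0.84, 95% interval -2.17 to 1.33, limma adjusted p = 0.810), and 0.61 relative to the median. Its sign turned after the 3 rescalings, to between 0.50 and 0.57, and without AF NP replicate 3 the ratio was -1.06 (adjusted p = 0.358).

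*Gja4* (ENSMUSG00000050234, chr4:127311421-127314039, minus strand) had the smallest fold range between replicates of the 6 in both fractions. AF NP gave 2161, 2642 and 2544 FPKM, on average 2449 ± 254 (SD, n = 3). AF P gave 569, 500 and 852 FPKM, on average 640 ± 186 (SD, n = 3). All P libraries lay below all NP libraries, and the mean of P was 0.261 times that of NP. It ranked 18, 14 and 22 in NP and 83, 40 and 67 in P. The log2 ratio was -1.97 (SE 0.49, 95% interval -2.97 to -0.96), with an adjusted p of 0.0592 in limma, and it was -0.94 relative to the median. That is lower than most genes but not at the extreme, since 21.5% of the tested genes had a lower ratio, and with a pseudocount of 0.1 the value relative to the median was -0.24. The call was lost after the 3 rescalings (-1.10 to -0.97, adjusted p 0.628 to 0.701) and without AF NP replicate 1 (-2.05, 0.356), replicate 2 (-1.91, 0.372), replicate 3 (-1.94, 0.165) or AF P replicate 1 (-1.90, 0.118). The ratio stayed below 0 in all 15 alternatives and was called in 6.

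**Figure D2:**
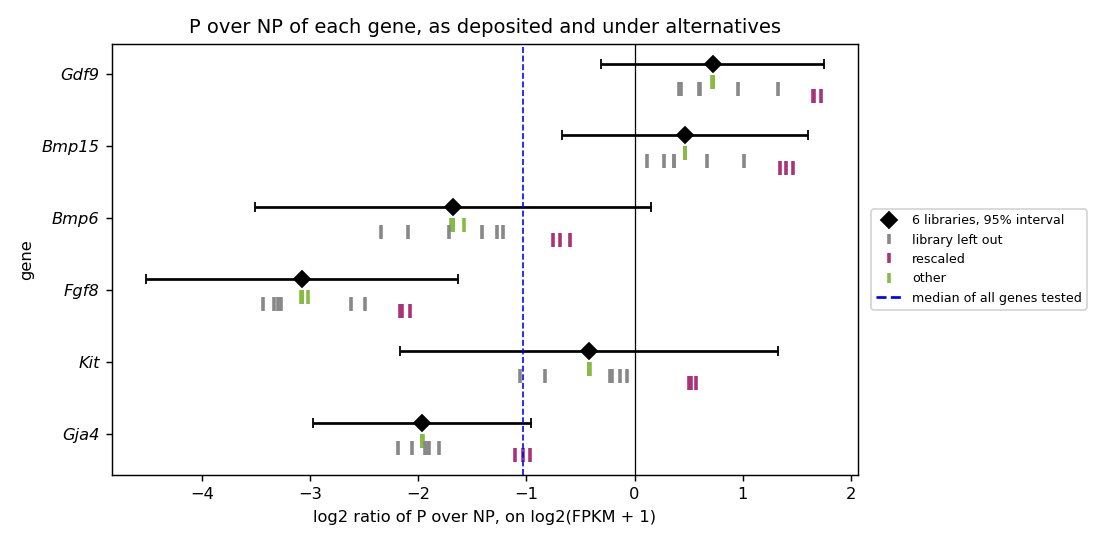
Log2 ratio of P over NP of each gene on log2(FPKM + 1), with the value from the 6 libraries as deposited and its 95% interval (black), the values with 1 library left out (grey), after 3 rescalings (purple) and under other settings (green), and the median of all tested genes (-1.03) as a dashed line. *Gdf9* and *Bmp15* stay above 0, *Fgf8* and *Gja4* stay below 0, and *Kit* lies on both sides, from -1.06 to 0.57.

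Depth differed between the fractions, and 1 NP library allows a look at libraries of like depth. AF NP replicate 1 had 1237799 recovered reads, between the 1141531 of AF P replicate 2 and the 1549317 of AF P replicate 3. Their summed FPKM still differed, at 611992 in that NP library against 246215 and 393926 in the 2 P libraries. *Fgf8* was at 670 FPKM in that NP library against 50.0 and 186 in the 2 P libraries, and *Gja4* at 2161 against 500 and 852. The genes that did not pass the test include 2 that were also higher in that NP library, *Kit* at 186 against 63.2 and 64.8 and *Bmp6* at 139 against 117 and 31.1. How many of all tested genes were higher in that NP library was not counted. Their median log2 ratio over the 6 libraries was -1.03, so this pattern is not particular to these genes. *Gdf9*, at 1591 against 1329 and 4776, and *Bmp15*, at 1226 against 598 and 1665, lay between the P values in FPKM. As shares of the summed FPKM, *Gdf9* (0.260% against 0.540% and 1.21%) and *Bmp15* (0.200% against 0.243% and 0.423%) lay below both P values. By share *Bmp6*, at 0.0228%, lay between 0.0474% and 0.00789%, while *Fgf8*, *Gja4* and *Kit* remained higher in that NP library.

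The order of the 6 mRNAs differed between fractions. In NP the means fell from *Gja4* through *Gdf9*, *Fgf8*, *Bmp15* and *Bmp6* to *Kit*, and among neighbours only *Bmp15* and *Bmp6* had ranges that did not overlap. In P the means fell from *Gdf9* through *Bmp15*, *Gja4*, *Fgf8* and *Kit* to *Bmp6*, and only *Gja4* and *Fgf8* had separate ranges. Within single libraries, *Gdf9* exceeded *Bmp15* and *Bmp15* exceeded *Gja4* in 3 of 3 P libraries. *Gja4* was the highest of the 6 in AF NP replicates 1 and 2 and second to *Gdf9* in replicate 3. Together the 6 genes made up 0.976%, 0.980% and 1.32% of the summed FPKM in NP and 2.23%, 1.08% and 1.92% in P.

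Ratios between 2 of the genes within 1 library do not depend on a scaling factor of the library. They are given as a description and were not tested. Of 15 pairs, 6 had ratios that did not overlap between fractions, beside 16.4% of the 10249128 pairs among the 4528 tested genes above 0 in all 6 libraries. That background was not matched to the abundance of the 6 genes. The 15 pairs also share genes, and each of the 6 that did not overlap held *Fgf8* or *Gja4*. *Fgf8* was in 4 of them, *Gja4* in 3, *Gdf9* and *Bmp15* in 2 each, *Kit* in 1 and *Bmp6* in 0. *Gdf9* exceeded *Fgf8* by 2.37, 2.16 and 1.45 times in NP and by 30.1, 26.6 and 25.7 times in P. This was the most even of the shifts, a log2 difference of 3.81 with an SD of 0.38 in NP and 0.12 in P. The ratio of *Bmp15* to *Fgf8* was 1.83, 1.10 and 0.444 in NP and 13.6, 12.0 and 8.95 in P.

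*Gdf9* and *Bmp15* also stood higher against *Gja4* in P, while the ratio of *Bmp6* to *Gja4* overlapped. *Gdf9* was 0.736, 0.598 and 1.02 times *Gja4* in NP and 8.14, 2.66 and 5.61 times in P. *Bmp15* was 0.567, 0.304 and 0.313 times *Gja4* in NP and 3.67, 1.20 and 1.95 times in P. *Gdf9* against *Bmp15*, the partners in the heterodimer, overlapped, with ratios of 1.30, 1.97 and 3.26 in NP and 2.22, 2.22 and 2.87 in P. *Fgf8* against *Gja4*, the pair of genes that were lower in P, stood at 0.310, 0.277 and 0.706 in NP and 0.270, 0.100 and 0.218 in P, so *Fgf8* was the lower of the pair in all 6 libraries. Here the step from 0.277 to 0.270 is within the counting error of the 34 *Fgf8* reads in AF P replicate 1, whose interval of 106 to 215 FPKM spans it. The ratio of *Fgf8* to *Kit* was 3.60, 4.28 and 38.4 in NP and 1.02, 0.790 and 2.87 in P, and AF NP replicate 3 set the upper end.

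**Figure D3:**
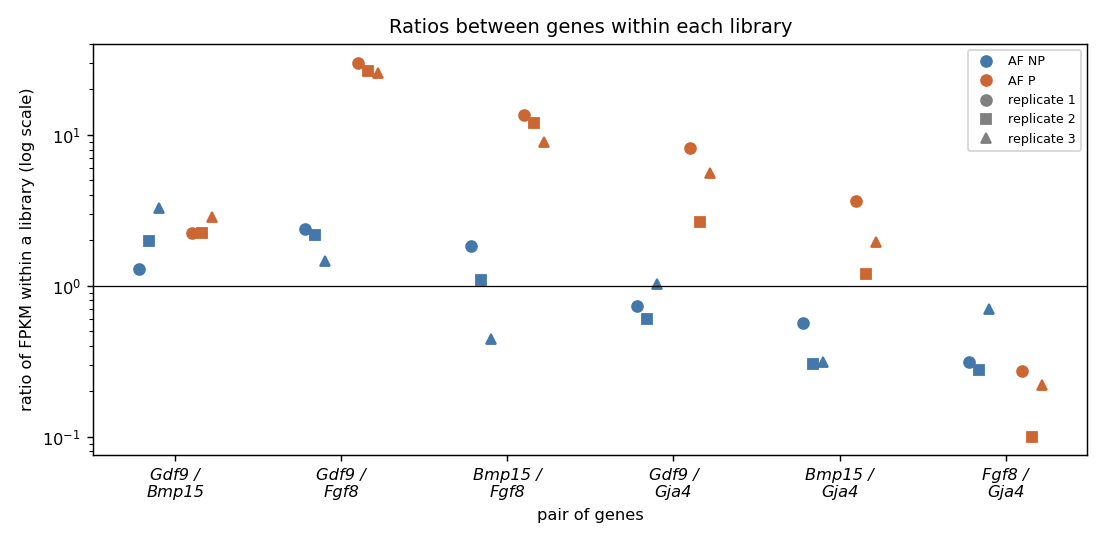
FPKM ratio of 6 pairs of genes within each library on a log axis, for AF NP (blue) and AF P (orange), with the replicate number as the symbol and a line at 1. The ratio of *Gdf9* to *Fgf8* is 1.45 to 2.37 in NP and 25.7 to 30.1 in P, while the ratio of *Gdf9* to *Bmp15* overlaps.

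Partners and relatives of the 6 factors, in 7 lists with 46 tested genes, gave 0 calls in either direction, against 1.8% lower and 0.0189% higher over all tested genes. With the replicate block 2 of 46 were called lower, where 6.27% of all tested genes were, the signal transducer *Smad1* (-3.77, limma adjusted p = 0.0611) and the connexin *Gjb1* (-3.42, 0.0934). Of 16 BMP and GDF receptors and Smads, which carry the TGF-beta family signal, 11 were tested, 9 of them had a ratio below 0, as 80.1% of all tested genes did, and their median log2 ratio was -0.71. The most abundant by the mean of the 6 libraries, which is how such genes are named here, was *Smad3*, which measured 190, 184 and 163 FPKM in NP, and in P 240, 90.6 and 42.9. Of 4 proprotein convertases, which cut the precursors of such ligands, 3 were tested, with a median of -0.75, and *Furin* measured 10.4, 8.98 and 18.4 FPKM in NP, and in P 6.65, 4.01 and 11.2. Of 14 other BMP and TGF-beta family ligands, 8 were at 0 in all 6 libraries and 4 were tested, with a median of -1.55. *Tgfb2*, the most abundant of them over both fractions, reached 35.9 FPKM in NP and 16.9 in P, and lay under *Bmp15* in every library.

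Of 9 FGF receptors and feedback genes, 5 were tested, all 5 below 0, with a median of -1.38. *Spry4*, an inhibitor of FGF signalling, measured 147, 616 and 86.4 FPKM in NP, and in P 101, 88.2 and 48.4, while *Fgfr4* and *Spry2* were at 0. Of 14 genes of Kit signalling, 12 were tested, 9 of them below 0, with a median of -0.56. *Foxo3*, the transcription factor that Kit signalling holds out of the nucleus, measured 228, 132 and 32.5 FPKM in NP, and in P 127, 75.3 and 112, and as for *Kit* its lowest value was in AF NP replicate 3. *Kitl*, the ligand made by granulosa cells, measured 0.701, 0.949 and 0 FPKM in NP, and in P 1.06, 0.152 and 0. Of 10 other FGF ligands and Kit family receptors, 5 were tested, with a median of -0.99, and the most abundant over both fractions, *Csf1r*, reached 16.5 FPKM in NP and 8.07 in P.

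Of 10 other connexins and junction partners, 6 were tested, 5 of them below 0, with a median of -0.72. *Cdh1*, the E-cadherin of the oocyte surface, measured 131, 149 and 55.2 FPKM in NP, and in P 62.7, 88.3 and 52.5. *Gja1*, the connexin of granulosa cells, was at 0 in all 6 libraries, as was *Gjc1*. Among the oocyte markers, 13 of 14 were tested, with a median of -0.49, 1 called lower and 0 higher, against 1.8% and 0.0189% of all tested genes. With the replicate block 2 were lower, against 6.27%, the other being *Zp1* (limma adjusted p = 0.0733). The marker called in both fits was *Nobox*, an oocyte transcription factor, with 387, 567 and 406 FPKM in NP, and in P 32.1, 104 and 37.3. Its log2 ratio was -3.13 (SE 0.76, limma adjusted p = 0.0586). *Zp3*, the most abundant marker over both fractions, had a log2 ratio of -1.24 with an adjusted p of 0.241. Of 18 granulosa and cumulus markers, 2 were tested and 0 called, with a median of -2.26, and *Cyp19a1* measured 7.15, 22.5 and 104.1 FPKM in NP, and in P 15.4, 0 and 0. *Cyp19a1* and *Fgf8* were both highest in AF NP replicate 3, where *Inha* (0.112 FPKM) was the only other marker of this list above 0, and the part of granulosa RNA in the *Fgf8* values was not tested. *Gdf9* and *Bmp15* exceeded the summed granulosa and cumulus markers in every library.

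**Figure D4:**
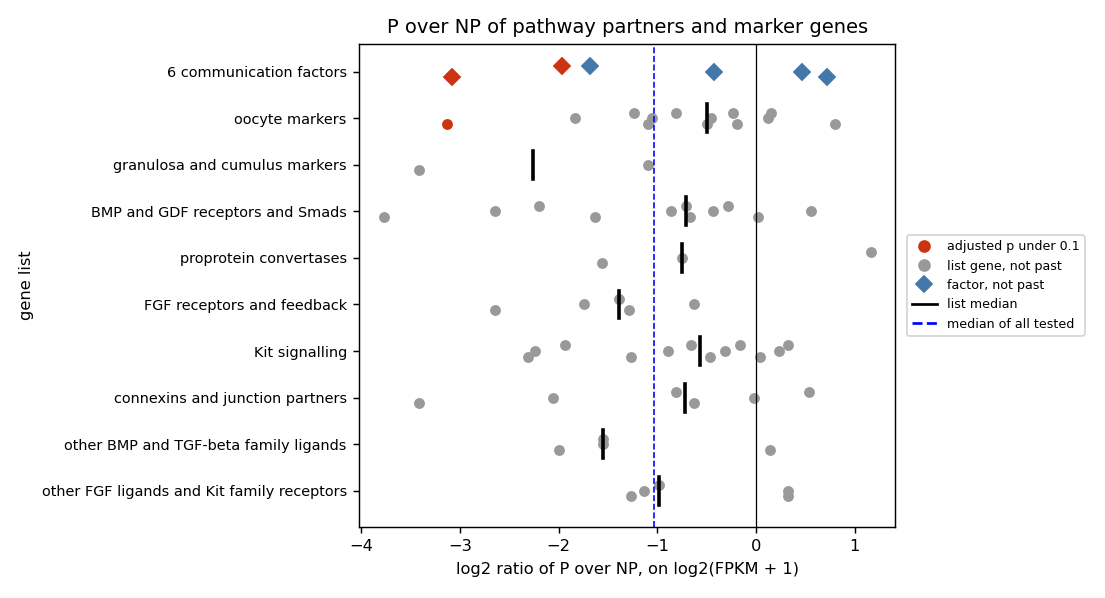
Log2 ratio of P over NP on log2(FPKM + 1) of the 6 factors (diamonds) and of each tested gene of 9 lists (dots), with adjusted p under 0.1 in red, list medians as black bars and the median of all tested genes (-1.03) as a dashed line. *Fgf8*, *Gja4* and the marker *Nobox* are the 3 genes past the threshold.

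The genes whose levels were most like those of each factor were found by Pearson's r of log2(FPKM + 1) over the 6 libraries, among 10578 genes. These r values describe 6 points that share fraction, depth and possibly the oocyte pool. *Gdf9* was most like *Ldhb*, a lactate dehydrogenase subunit (r = 0.978), and *Myeov2* (0.978), and only 5 genes had r above 0.95 with it. *Bmp15* was most like *AC107669.1* (0.993) and *Plac1l* (0.989), with 6 genes above 0.95. *Ldhb* measured 507, 695 and 1301 FPKM in NP, and in P 3569, 527 and 2493, highest in AF P replicates 1 and 3 and AF NP replicate 3, as for *Gdf9*. *Fgf8* was most like *Rpl27*, a ribosomal protein gene (0.998), and *Arf6* (0.991), with 67 genes above 0.95. *Rpl27* measured 782, 752 and 1651 FPKM in NP, and in P 235, 108 and 305.

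*Gja4* was most like *Fbxo46* (0.999) and *Map1lc3a* (0.997), with 153 genes above 0.95. *Bmp6* was most like *Abcb8* (0.998) and *Zfp110* (0.993), with 115 above 0.95, and *Kit* like *Ercc2* (0.994) and *Kctd20* (0.991), with 83. Between the factors themselves r was 0.944 for *Fgf8* and *Gja4*, 0.824 for *Gdf9* and *Bmp15*, and -0.912 for *Gdf9* and *Bmp6*.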

How the data were processed

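Ribodepleted RNA of 3 AF NP and 3 AF P samples was amplified (REPLI-g WTA) and sequenced. The values are FPKM per gene, which the authors computed in Seqmonk and deposited. Before that, reads had been trimmed (Trim Galore 0.4.1) and mapped to GRCm38 (HISAT2 2.0.5), and the submitters' processing notes also name FastQC 0.11.5. For the annotation release and the strand setting, nothing is given in the sources used here. Of 25965 rows, 58 symbols were duplicated, and the row with the highest mean was kept.

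Depth was recovered from 13237 rows with a GENCODE M21 gene of the same start and end, as the step that makes low values whole (84.6% to 90.6% of them within 0.02 reads). Reads of *Bmp6* and *Kit* did not come out whole in all 6 libraries at GENCODE lengths. They are not given, except for an approximate count of *Bmp6* in AF P replicate 1.

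The fractions were compared by a two-sided limma test (limma 3.58.1, R 4.3.3) of log2(FPKM + 1), in which the spread may depend on the level. Genes needed a mean above 1 FPKM in NP or in P, which all 6 genes passed. Summaries and plots used Python 3.11.15. Per the study's methods each sample gave 1 NP and 1 P library, and libraries of the same number are taken as parts of 1 sample, which the sources used here leave unstated. Across genes, their deviations from the group means had correlations of 0.063, 0.099 and 0.116, against -0.089 to 0.021 for differently numbered libraries, and 6 of 6 libraries correlated best with their own number. The fit was made without the pairs. As alternatives, each library was left out, and a replicate block, no trend, a threshold of 0.05 and other scalings, filters and pseudocounts were used. Named genes are the 6 factors, list members past the threshold with or without the block, the most abundant gene of each list and the 2 genes most like each factor, while further list genes are named at 0 or as markers. The members and lists were chosen with earlier results of these data known. Motifs were read in 1 representative GENCODE M21 transcript per gene, found for 84.6% of tested genes.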

Additional observations from a re-analysis of the deposited data

How the results depend on the processing

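The count of genes past the threshold was 192 and depended on the setting. It was 69 with a pseudocount of 0.1, 15 with no trend, 65 at an adjusted p of 0.05 (which *Gja4*, at 0.0592, does not pass), 3 after median-of-ratios scaling, 4 after quantile normalization, and 7 after scaling to a common FPKM sum, an alternative chosen after seeing the data. With no filter on low values limma called 0 genes, with 1759 at an unadjusted p under 0.05. Leaving out 1 library gave between 1 and 331 genes (4 without AF NP replicate 1, 12 without replicate 2, 1 without replicate 3, and 331 without AF P replicate 3). The 3 scalings moved the median of all genes from -1.03 to -0.37, -0.22 and -0.43. The cause was not tested.

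*Fgf8* was no longer called with no filter (-3.08, limma adjusted p = 0.303), no trend (-3.08, 0.160), median-of-ratios scaling (-2.08, 0.614), quantile normalization (-2.17, 0.501) and the common sum (-2.15, 0.358), and ranged from -3.43 to -2.50 with 1 library left out. *Gja4* was no longer called with no filter (-1.97, 0.309), no trend (-1.97, 0.285), median-of-ratios scaling (-0.97, 0.701), quantile normalization (-1.10, 0.656) and the common sum (-1.03, 0.628), and ranged from -2.19 to -1.81 with 1 library left out. *Kit* turned to 0.57, 0.53 and 0.50 under these 3 scalings. *Gdf9*, *Bmp15* and *Bmp6* kept their direction and passed the test in none of the 15 alternatives. Relative to the median of all genes, *Gdf9* stayed between 1.24 and 2.53, *Bmp15* between 0.98 and 2.21, *Kit* between 0.11 and 1.31, *Fgf8* between -2.51 and -1.29 and *Gja4* between -1.44 and -0.24, while *Bmp6* lay between -1.15 and 0.028.

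With the replicate block 668 genes were called (5 higher, 663 lower). The block changed no call among the 6 genes, and among the list genes it added *Smad1*, *Gjb1* and *Zp1*.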
